A study of Mus musculus with 3 samples.

Results

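The fibroblast growth factor (FGF) family, its receptors and their partners were followed in ureteric bud cells of the mouse embryo as 33 listed genes, 22 FGF genes and 11 genes for receptors, co-receptors, binding proteins and docking adaptors. Members were chosen by gene symbol, with earlier results of these data known. They were read through array probe sets that the platform annotation assigns to a single gene. Of the 33 genes, 32 had such a probe set, 1 each, out of 19938 named genes on the array, and Frs2 is not analysed here. All samples form 1 group of 3 arrays: ureteric tip cells of CD-1 embryos at 10.5 days post coitum (Theiler stage 18), of unknown sex, carrying the transgene Tg(Hoxb7-EGFP)33Cos, a green fluorescent reporter placed under Hoxb7 control that labels the nephric duct and its outgrowth. Each array held cells from 1 bud, microdissected, trypsinized and purified by cell sorting, with 1 round of RNA amplification. There was no other genotype, tissue or time, so each gene could be set only against the background of the arrays and its values compared between buds.

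FGFs are secreted proteins that bind heparan sulfate and activate receptor tyrosine kinases at the cell surface. The receptors signal through docking proteins to the RAS and ERK kinases, and the response includes genes that damp the signal. In the developing kidney, FGF signals from the surrounding mesenchyme act on receptors of the bud epithelium during branching, and FGFs also keep nephron progenitors alive. In the mouse, FGF7 and FGF10 are mesenchymal ligands of the epithelial form of FGFR2, while FGF9 is made by the bud and FGF20 by the progenitors.

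As background served 1035 probe sets of olfactory receptors, genes of the nose, and their 95th percentile, taken within each array, was 5.40, 5.45 and 5.41 log2 on arrays 1, 2 and 3. The height of a gene is its log2 signal minus that level. A gene was called above background when its mean height over the 3 arrays exceeded 0 in a one-sided limma test at a Benjamini-Hochberg adjusted p under 0.05 over all 19938 genes. Signals of different probe sets depend on the probes, so each gene is read against background and not against another gene. Of the 10 bud markers, all were above background (Ret, Gfra1, Wnt11, Hoxb7, Calb1, Gata3, Pax2, Cdh1, Epcam and Emx2), against 53% of all named genes. Their median signal was 8.58, 8.19 and 7.89 log2 on arrays 1, 2 and 3.

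Of the 32 measured FGF genes, 14 were above background, against 53% of all named genes. The median height was -0.26 log2 over the FGF genes and 0.22 log2 over all genes. The FGF genes themselves were called in 8 of 22 cases, and the receptors and their partners in 6 of 10. The median height was -0.42 log2 for the first and 0.28 log2 for the second. The differences between these shares and between these medians were not tested, and the heights also depend on the probes.

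**Figure D1:**
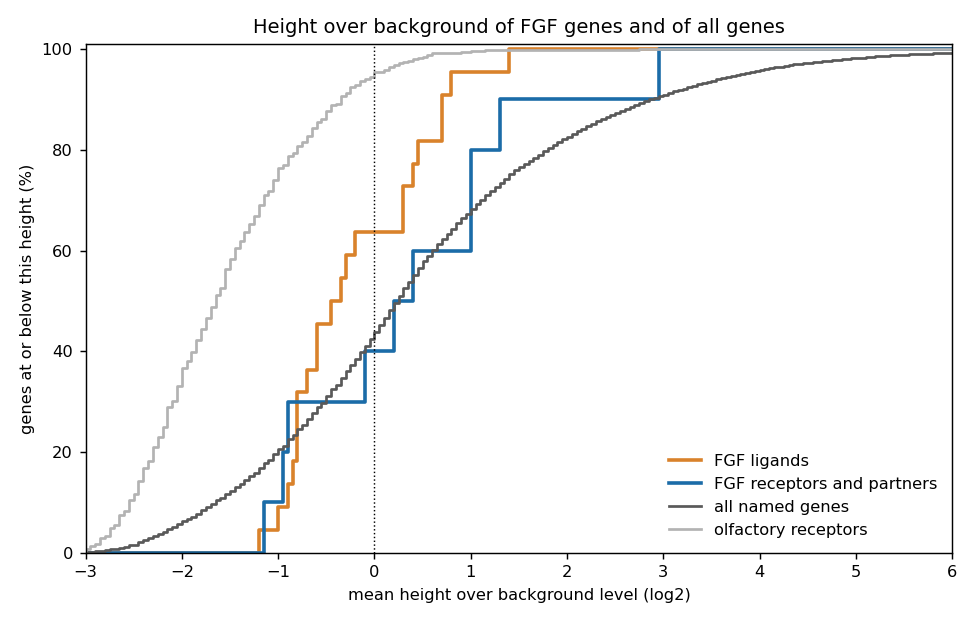
Cumulative share of genes (%, vertical) at or below a given mean height over the background level (log2, horizontal) for the 22 FGF genes, the 10 receptors and partners, all 19938 named genes and the olfactory receptors that set the level. At a height of 1 log2, 95.5% of FGF genes and 80.0% of receptors and partners lie at or below, against 68.3% of all genes and 99.5% of olfactory receptors.

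The start regions of 4 members are shown. They are Fgfr2, the member with the greatest height, Fgf9, the FGF gene with the greatest height, and the adjacent genes Fgf3 and Fgf4. Fgf3 was called and Fgf4 was not. Each runs from 250 bases before to 50 bases after the RefSeq start (GRCm38.p6), 5′ to 3′ on the gene's strand, with every CG dinucleotide in capitals. Fgfr2 lies at chr7:130266759-130267058 on the minus strand, Fgf9 at chr14:58072436-58072735 on the plus strand, Fgf3 at chr7:144838362-144838661 on the plus strand and Fgf4 at chr7:144861136-144861435 on the plus strand.
Fgfr2: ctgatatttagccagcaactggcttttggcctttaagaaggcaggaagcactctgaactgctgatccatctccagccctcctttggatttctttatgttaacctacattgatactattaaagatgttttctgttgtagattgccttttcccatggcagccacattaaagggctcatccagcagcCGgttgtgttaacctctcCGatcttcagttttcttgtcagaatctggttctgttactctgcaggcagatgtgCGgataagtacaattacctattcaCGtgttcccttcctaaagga
Fgf9: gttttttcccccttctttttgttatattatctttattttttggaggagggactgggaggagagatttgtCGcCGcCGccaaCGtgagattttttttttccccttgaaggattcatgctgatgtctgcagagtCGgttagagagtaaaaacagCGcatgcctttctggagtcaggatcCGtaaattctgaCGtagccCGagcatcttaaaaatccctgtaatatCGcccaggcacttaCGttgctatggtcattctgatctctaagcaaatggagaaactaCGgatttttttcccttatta
Fgf3: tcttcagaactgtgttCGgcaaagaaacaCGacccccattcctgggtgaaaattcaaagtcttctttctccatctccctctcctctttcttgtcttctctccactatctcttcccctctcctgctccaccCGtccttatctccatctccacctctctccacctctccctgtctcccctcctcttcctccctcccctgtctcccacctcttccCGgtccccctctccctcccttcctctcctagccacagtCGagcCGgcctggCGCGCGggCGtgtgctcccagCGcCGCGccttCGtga
Fgf4: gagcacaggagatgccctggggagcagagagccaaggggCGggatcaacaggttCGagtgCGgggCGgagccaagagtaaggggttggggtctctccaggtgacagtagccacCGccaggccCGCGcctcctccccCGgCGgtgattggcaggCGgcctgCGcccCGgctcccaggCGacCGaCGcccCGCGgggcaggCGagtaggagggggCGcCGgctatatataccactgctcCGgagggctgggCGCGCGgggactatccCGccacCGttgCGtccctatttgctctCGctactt

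The window of Fgfr2 holds 4 CG dinucleotides, that of Fgf9 12, that of Fgf3 14 and that of Fgf4 28. CG reads the same on both strands. A CG occurs in 94.6% of the 32851 windows of this length in the table, with a median of 7 a window. With chromosome 18 left out, the table held windows for 26 of the 33 members. The counts over all windows and over all measured genes were made without that exclusion. Called members had a median of 24 CG in 14 windows of 10 genes, against 10.5 in 18 windows of 15 measured members that were not called. Over all measured genes in the table, called genes had a median of 21 and the others 6. Of the 4 genes shown, the called genes Fgfr2, Fgf9 and Fgf3 all lie below the median of the called members, and Fgf4, which was not called, lies above it. Several windows can belong to 1 gene, and no test was made.

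Among the receptors, 4 of 5 were above background, against 53% of all named genes. Fgfr2, the receptor tyrosine kinase that binds FGF7 and FGF10 in its epithelial form, had signals of 8.46, 8.46 and 8.13 log2 on arrays 1, 2 and 3. Arrays 1 and 2 held the same value and array 3 was lower by 0.34 log2, and every value was over the background level. Its mean signal was 8.35 ± 0.20 log2 (SD, n = 3) and its mean height 2.93 log2, or 7.63 times the background level (limma, adjusted p = 1.62e-05). At most 1 of the 1035 olfactory receptor probe sets reached it on any array. The median of the bud markers was also lowest on array 3, and the median of 8 endothelial markers was 6.32, 5.70 and 6.83 log2 on arrays 1, 2 and 3. The part of either in the difference of Fgfr2 was not tested.

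Fgfr1, a receptor of both epithelium and mesenchyme, had signals of 6.76, 6.76 and 6.60 log2 on arrays 1, 2 and 3. Array 3 was the lowest here too, by 0.16 log2. The mean height was 1.29 log2 (limma, adjusted p = 2.48e-05), and 2, 3 and 5 olfactory receptor probe sets reached it. Fgfrl1, an FGF receptor without the kinase part that is needed for kidney formation in the mouse, had signals of 6.41, 6.42 and 6.41 log2. The arrays lay within 0.0097 log2 of each other, and the mean height was 0.99 log2 (limma, adjusted p = 8.77e-06). Fgfr3, a receptor best known from cartilage, was at 5.78 log2 on each array. Its height of 0.36 log2 passed the test (limma, adjusted p = 0.000219), though 23, 28 and 24 olfactory receptor probe sets lay at or over it. Fgfr4, a receptor best known from liver, was at 5.31 log2 on each array and was not above background, with a height of -0.11 log2.

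The klotho proteins, co-receptors that endocrine FGFs need, were below the background level. Kl was at 4.46 log2 on each array and Klb at 4.26, 4.26 and 4.19 log2, with heights of -0.96 and -1.19 log2. The secreted FGF-binding protein gene Fgfbp1 was at 4.50 log2 on each array and was not called. Its relative Fgfbp3 had signals of 5.50, 5.70 and 5.66 log2 on arrays 1, 2 and 3, the 1 member with a different value on every array. Its mean height of 0.20 log2 passed the test (limma, adjusted p = 0.0107), but not without array 1, array 2 or array 3 (limma, adjusted p of 0.0537, 0.0876 and 0.17; over all its alternatives 1.17e-10 to 1). Frs3, a docking adaptor that links activated FGF receptors to RAS, was at 6.40 log2 on each array, a height of 0.98 log2 (limma, adjusted p = 1.05e-05).

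**Figure D2:**
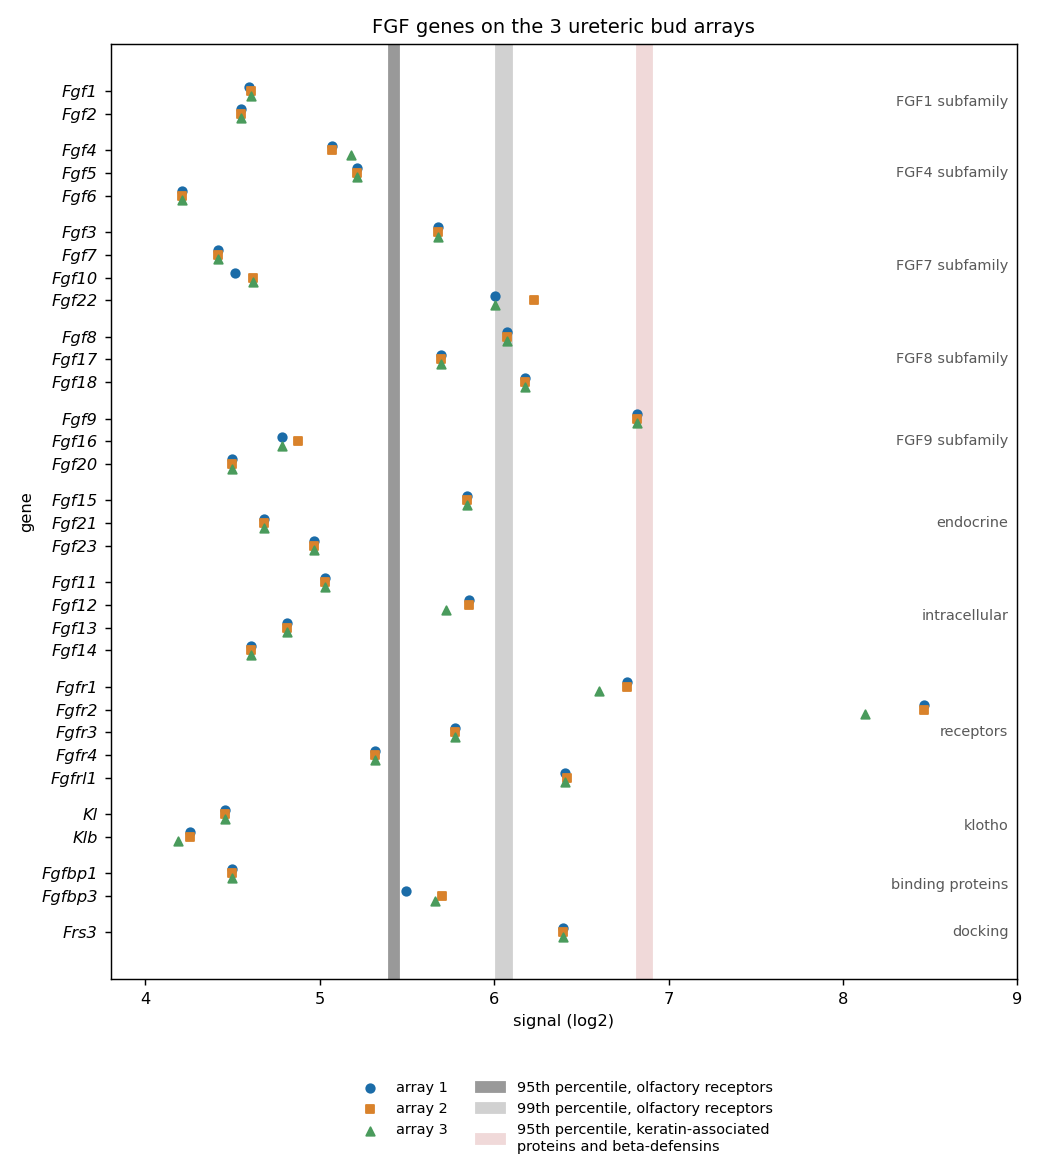
Signal (log2, horizontal) of the 32 measured FGF genes on each of the 3 arrays, grouped by subfamily or role. Points are single arrays, drawn slightly apart so that equal values stay visible; bands span the 3 arrays' background levels by each of 3 definitions. Fgfr2 alone lies wholly to the right of all bands, and 18 genes lie left of the dark band.

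Of the 15 paracrine ligands, which act on nearby cells, 6 were above background, against 53% of all named genes. The FGF8 subfamily had all of its 3 members called. Fgf8, which the nascent nephron needs, was at 6.07 log2 on each array, Fgf18, known from bone and lung, at 6.18 log2, and Fgf17, known from the brain, at 5.69 log2. Their heights were 0.65, 0.76 and 0.27 log2 (limma, adjusted p of 3.36e-05, 2.17e-05 and 0.000536). None had a measured spread, since each held 1 value on all arrays. For Fgf17, 28, 31 and 30 olfactory receptor probe sets lay at or over it on arrays 1, 2 and 3. None of the 3 genes was called at the 99th percentile of olfactory receptors.

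In the FGF9 subfamily Fgf9 was above background and its relatives were not. Fgf9 was at 6.82 log2 on each array, a height of 1.40 log2 or 2.64 times the background level (limma, adjusted p = 4.09e-06). At that signal 2, 3 and 3 olfactory receptor probe sets lay at or over it. Fgf20 was at 4.50 log2 on each array, a height of -0.92 log2. Fgf16, a ligand known from the heart, was at 4.78, 4.87 and 4.78 log2 on arrays 1, 2 and 3, a height of -0.61 log2.

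The FGF7 subfamily, whose members act on the epithelial forms of the receptors, was split. Fgf7 was at 4.42 log2 on each array and Fgf10 at 4.51, 4.62 and 4.62 log2, with heights of -1.001 and -0.84 log2, so neither ligand was above background on any array. At least 201 olfactory receptor probe sets lay at or over either of them on every array. Fgf22, a ligand known from synapses, had signals of 6.01, 6.23 and 6.01 log2 on arrays 1, 2 and 3. All 3 values were over the level, array 2 was the highest, and the height was 0.66 log2 (limma, adjusted p = 0.000288). Fgf3, which acts in ear development, was at 5.68 log2 on each array, a height of 0.26 log2 (limma, adjusted p = 0.000644). The call was lost without array 1 (limma, adjusted p = 0.0561, and 4.01e-12 to 1 over all its alternatives). The height of Fgf3 in that fit was 0.25 log2. That fit took 1 pooled SD for all genes, so the lost call shows no difference between buds.

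The FGF1 and FGF4 subfamilies had no member above background among 5, against 53% of all named genes. Fgf1 and Fgf2, ligands without a classical secretion signal, had heights of -0.82 and -0.87 log2. Fgf4, a ligand of the early embryo, was at 5.07, 5.07 and 5.18 log2, Fgf5, which limits hair growth, at 5.21 log2 on each array and Fgf6, a muscle ligand, at 4.21 log2 on each array. Their heights were -0.31, -0.21 and -1.21 log2.

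The endocrine ligands act at a distance through klotho co-receptors. Fgf15, a gut hormone that limits bile acid synthesis and is also made in the embryo's neural tube, was at 5.85 log2 on each array, a height of 0.43 log2 (limma, adjusted p = 0.000125). Fgf21, a liver hormone of fasting, and Fgf23, a bone hormone of phosphate balance, had heights of -0.74 and -0.45 log2 and were not called. Among the intracellular FGFs, which are not secreted and bind sodium channels, Fgf12 had signals of 5.85, 5.85 and 5.73 log2 on arrays 1, 2 and 3, all over the level (limma, adjusted p = 0.000625). Fgf11, Fgf13 and Fgf14 had heights of -0.39, -0.61 and -0.81 log2.

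On the RefSeq map, Fgf3, Fgf4 and Fgf15 follow each other on chromosome 7 with 0 other protein-coding genes between them. The outer genes were called and Fgf4, in the middle, was not, with heights of 0.26, -0.31 and 0.43 log2 in that order. Fgf6 and Fgf23 are neighbours on chromosome 6, and neither was called.

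How firmly the calls stand depended on what was taken as background. The 99th percentile of olfactory receptors left 5 members above it, against 35.3% of all genes: Fgf9, Fgfr1, Fgfr2, Fgfrl1 and Frs3. The level set by 84 probe sets of keratin-associated proteins and beta-defensins left Fgfr2, against 21.1% of all genes. A rule without a model, a signal at least 1 log2 over the level on all 3 arrays, chosen after seeing the data, kept Fgf9, Fgfr1 and Fgfr2, against 29.6% of all genes. Each of these 3 asks for more than the main level. Every member not called in the main test had a mean signal below that level, so none of those could pass. Lower levels gave more calls: 9 FGF genes and 7 receptors or partners at the 90th percentile, against 63.7% of all genes, and 10 and 7 with vomeronasal receptors as background, against 65% of all genes.

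**Figure D3:**
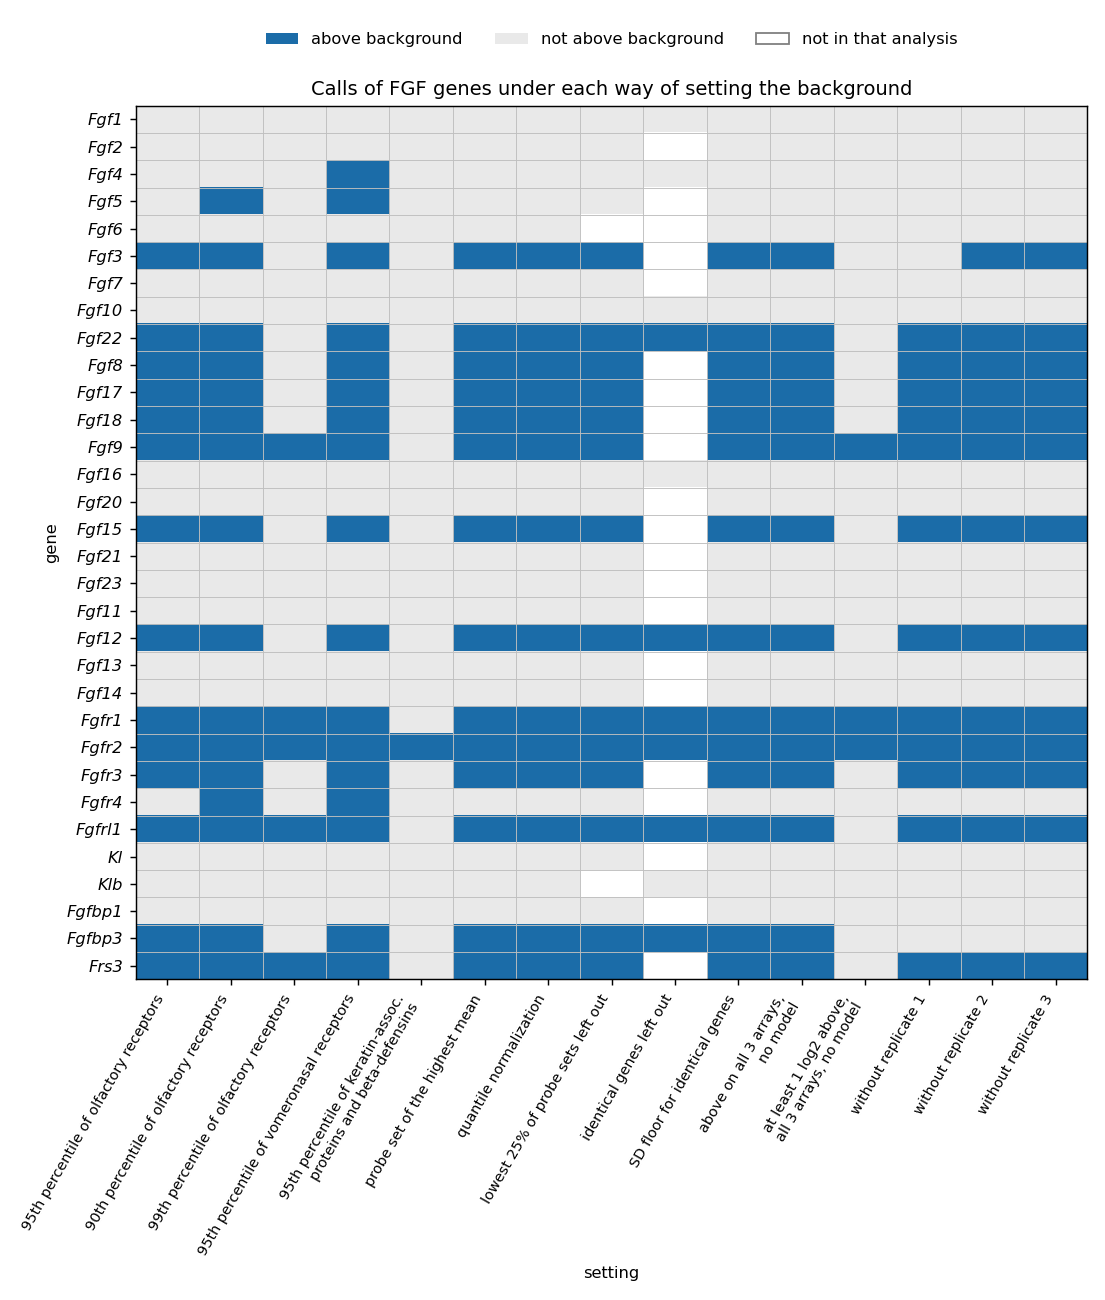
Calls of the 32 measured FGF genes (rows) under the main test, leftmost, and 14 alternatives (columns); blue is above background, grey is not, and white marks a gene left out of that analysis. Fgfr2 is blue in every column, Fgf4, Fgf5 and Fgfr4 turn blue where the level is lower, and Fgf7, Fgf10, Fgf20, Kl and Klb are never blue.

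Spread between buds could be seen for few of the members. One value, equal within 1e-06 log2, stood on all 3 arrays for 21 of 32 members (65.6%), against 51.7% of all named genes. A further 10 members had 2 equal arrays and 1 that differed, and 1 member had 3 values. Of those 10, array 3 was the different one for 5 (Fgf4, Fgf12, Fgfr1, Fgfr2 and Klb), array 2 for 3 (Fgf22, Fgf16 and Fgfrl1) and array 1 for 2 (Fgf1 and Fgf10). The widest range was 0.34 log2, in Fgfr2, while 2.37% of all genes ranged over more than 1 log2. For a gene with equal values the spread in the test is that of the 3 background levels and of the prior, so its p-value measures no difference between buds.

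Genes that pass on the FGF signal were above background in every measured case. Of 19 adaptor and RAS-ERK genes, 14 were measured and 14 called, against 53% of all named genes, with a median height of 1.87 log2. Grb2, the adaptor that recruits the RAS activator, had signals of 7.38, 7.38 and 7.46 log2 on arrays 1, 2 and 3, and the activator Sos1 was at 7.70 log2 on each. Its relative Sos2 was at 6.33, 6.33 and 5.91 log2. Gab1, a docking protein, was at 8.17, 6.88 and 7.22 log2, the 1 gene of this list that ranged over more than 1 log2, with array 1 the highest.

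Feedback inhibitors and targets were called in 16 of 18 measured cases, against the same 53% of all named genes, with a median height of 1.03 log2. Spry1, a Sprouty inhibitor that restrains bud outgrowth in the mouse, was at 6.31 log2 on each array. Its relative Spry3, at 4.64 log2 on each array, was not above background, and nor was Spry4, with a height of -0.08 log2. Spred1 and Spred2, related inhibitors of ERK signalling, had mean signals of 8.59 and 9.59 log2, and Il17rd, a membrane inhibitor of FGF receptors, 7.29 ± 0.26 log2 (SD, n = 3). Dusp6 and Etv4, which ERK activity induces, ranged by 1.04 and 1.22 log2. The list had no common direction between arrays: Spry2, Dusp6, Etv4 and Ccnd1 were lowest on array 3, while Il17rd, Flrt2, Flrt3 and Etv1 were highest there. RET, the GDNF receptor of the bud, acts through the same kinases and targets, so these lists are not specific to FGF.

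Heparan sulfate genes, whose products FGFs need for receptor binding, were called in 16 of 20 measured cases, also against 53% of all named genes, with a median height of 1.11 log2. The syndecans Sdc1, Sdc2, Sdc3 and Sdc4, membrane carriers of the sugar, had heights of 1.26, 0.46, 0.88 and 1.69 log2. The glypican Gpc3 had signals of 10.91, 10.61 and 10.61 log2 on arrays 1, 2 and 3. Not above background were the glypican Gpc5, the sulfotransferases Hs6st2 and Hs3st1, which modify the chain, and Sulf1, an enzyme that removes sulfate, with heights of -0.91, 0.04, -1.06 and -0.50 log2.

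**Figure D4:**
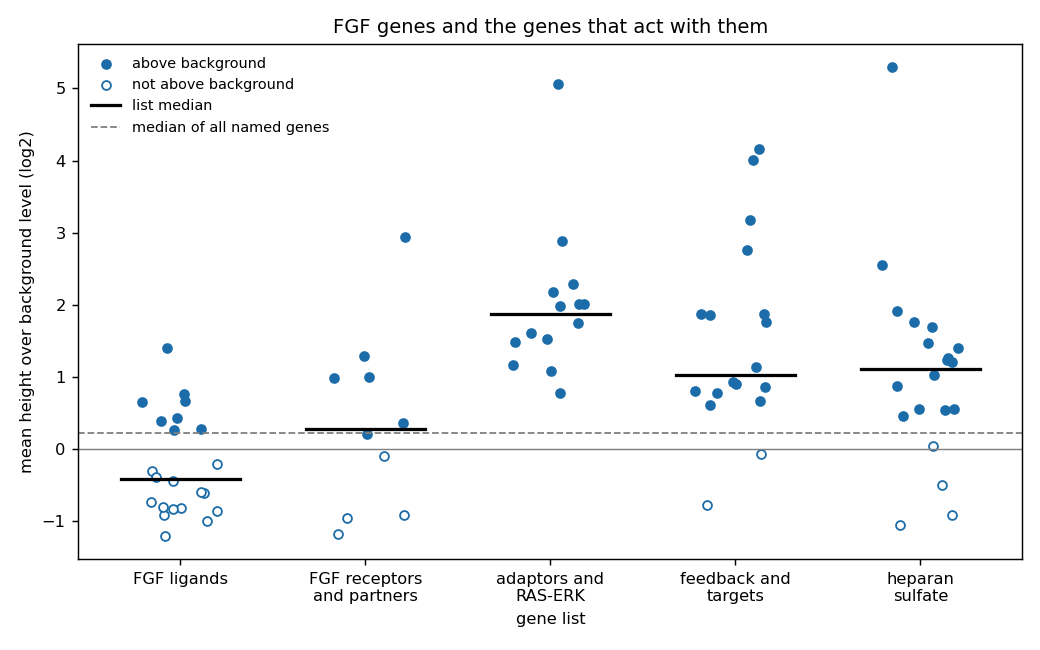
Mean height over the background level (log2, vertical) of each gene in the FGF genes, the receptors and partners, and 3 lists of genes that act with them; filled points were called, open points were not, bars are list medians and the dashed line is the median of all named genes. Filled points are 8 of 22 for the FGF genes, 6 of 10 for the receptors and partners, 14 of 14 for adaptors and RAS-ERK genes, 16 of 18 for feedback genes and targets and 16 of 20 for heparan sulfate genes.

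Markers of other cell types were read beside these calls. Their counts stand against 53% of all named genes called, so a list near that share does not stand out. In bulk cells, few cells of a type and little RNA a cell cannot be told apart. Metanephric mesenchyme markers were called in 2 of 9 cases, Cited1 and Wt1, with list medians of 5.21, 5.21 and 5.18 log2 on arrays 1, 2 and 3, while Six2, Gdnf, Eya1 and Osr1 were not. Stromal markers were called in 2 of 8, Col1a1 and Col3a1, and not Foxd1, Tcf21, Pdgfra or Pdgfrb. Endothelial markers were called in 5 of 8, with Kdr, Esam and Sox17 not called, blood markers in 2 of 7 (Hba-x and Alas2), somite and limb markers in 4 of 8 (Myod1, Pax7, Tcf15 and Tbx4) and neural markers in 2 of 5 (Sox10 and Isl1). Some markers that missed the call were well over the level on single arrays: the embryonic globin Hbb-y had signals of 8.86, 5.48 and 8.52 log2 on arrays 1, 2 and 3 (limma, adjusted p = 0.053), and the neuronal tubulin Tubb3 had 7.86, 5.93 and 6.09 log2 (limma, adjusted p = 0.0608). The globins Hba-x, Hbb-bh1 and Hbb-y were, like the endothelial markers, lowest on array 2. All 8 endothelial markers were lowest on array 2. An equal value on all arrays was held by 8 of the 14 called FGF genes and by 4449 of the 10567 called genes. It was also held by the called markers Col1a1, Col3a1 and Alas2. The part of other cell types in the FGF calls was not tested.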

How the data were processed

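Expression was measured on Affymetrix arrays, 1 for each of 3 ureteric bud samples of 1 group, numbered as in the sample titles. The authors deposited 1 log2 value per probe set and array, for which the submitters' processing notes name Affymetrix Expression Console. The log base was inferred from the range of the values. For background correction, normalization and summarization, no method is stated in the labels or files used here. Column medians were 5.47, 5.50 and 5.48 log2, and values were used as deposited. The number of arrays limits the precision, and no label says whether the buds came from separate embryos or litters. The p-values therefore cover no wider spread than that between these samples. For genes with equal values on all arrays they reflect only the spread of the background levels and the prior.

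Of 35557 probe sets, 21789 had 1 gene symbol in the platform annotation, 1621 several and 12147 none listed. Those with 1 symbol were averaged per gene. All 32 member probe sets carried the RefSeq gene ID of their symbol (GRCm38.p6). limma 3.58.1 in R 4.3.3 fitted the height over background and was tested on simulated data. The simulation gave all genes 1 common noise SD, so it does not show how the test behaves for genes with equal values on all arrays. The fit to the deposited values had a prior SD of 0.05 log2, with 1.71 prior degrees of freedom. Alternatives were the 90th and 99th percentile, other background genes, the probe set with the highest mean, quantile normalization, a filter on the lowest 25%, identical genes left out or given an SD floor, rules without a model, and each array left out. All members are named. Of other lists, members on the side with 5 or fewer are named, or else the first 4 measured, and a few more were named after their values were seen. Members, lists and tests were chosen with earlier results of these data known.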

Additional observations from a re-analysis of the deposited data

How the results depend on the processing

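Quantile normalization, the probe set of the highest mean, the filter on the lowest 25% of probe sets, the SD floor and the rule of a value over the level on all 3 arrays left the call of every member they covered as it was. Each measured member had 1 probe set, so taking the probe set of the highest mean could not change its signal. The filter also left the height of each member it kept unchanged. These 2 settings therefore say little about the member calls. The background definition moved most. At the 99th percentile of olfactory receptors the counts were 1 FGF gene and 7034 of all genes, and heights turned below 0 for Fgf3 (-0.39 log2), Fgf17 (-0.37), Fgf15 (-0.22), Fgf12 (-0.25), Fgfr3 (-0.29) and Fgfbp3 (-0.44). With keratin-associated proteins and beta-defensins the counts were 0 FGF genes, 1 receptor or partner, 4210 of all genes, 8 adaptor and RAS-ERK genes, 6 feedback genes and 4 heparan sulfate genes. Heights there were -1.19 log2 for Fgf3, -0.78 for Fgf22, -0.79 for Fgf8, -1.17 for Fgf17, -0.69 for Fgf18, -0.048 for Fgf9, -1.02 for Fgf15, -1.05 for Fgf12, -0.16 for Fgfr1, -1.09 for Fgfr3, -0.46 for Fgfrl1, -1.25 for Fgfbp3 and -0.47 for Frs3. Lower levels added calls: Fgf5 (0.17 log2) and Fgfr4 (0.28) at the 90th percentile, and Fgf4 (0.24), Fgf5 (0.35) and Fgfr4 (0.45) with vomeronasal receptors. Leaving out identical genes removes members by construction, so its counts have smaller totals. Called were 2 of 6 FGF genes, 6078 of 9627 genes in all, 8 of 8 adaptor and RAS-ERK genes and 9 of 12 heparan sulfate genes. The rule of at least 1 log2, added after seeing the data, gave 1 FGF gene, 2 receptors or partners, 5893 of all genes, 8 feedback genes and 10 heparan sulfate genes. Leaving out 1 array gave 7 to 8 FGF genes, 5 receptors or partners and 9666 to 10526 of all genes, and the calls lost were Fgfbp3 without any 1 array and Fgf3 without array 1. The causes of these changes were not tested. The fits without array 1 or array 3 took 1 pooled SD for all genes, as did that with vomeronasal receptors, so their p-values are not like for like with those of the other fits: the adjusted p of Fgfr2 was smaller without array 1 or array 3, and those of Fgf3 and Fgfbp3 were larger. No paired analysis was possible because the samples form 1 group.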

Other observations

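Different genes often held exactly the same deposited value. On array 1, 11318 of 19938 genes (56.8%) shared their value, to 5 decimals, with at least 1 other gene, on array 2 10993 (55.1%) and on array 3 11336 (56.9%), and the largest set of genes with 1 value held 144, 146 and 144. Of the 32 FGF genes, 21, 21 and 23 shared their value with another gene on arrays 1, 2 and 3. Within the family, Fgf20 and Fgfbp1 had the same value on all 3 arrays, 4.50 log2, and Fgf1 and Fgf14 the same value on arrays 2 and 3, 4.61 log2. Osr1 and Myf5, markers of other tissues, also stood at 4.50 log2 on every array, and Gpc2 stood at 6.82 log2, the value of Fgf9. An equal value on all arrays is therefore common to many unrelated genes of this table, and the step that produced it was not tested.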
